A study of Arabidopsis thaliana with 26 samples.

Results

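Developing leaves of Arabidopsis thaliana (accession Col-0) were compared at 4 h and at 2 h of a treatment that the series title describes as elevated CO2 with ambient light. The 8 arrays titled with these times (n = 4 at each) were taken out of the 26 arrays of the series, and the 4 arrays of developing leaves at 12 h were used to follow each change onward. All groups share the accession, growth in a room (Humax compost, 20 °C, 50% humidity and a day of 10 h of light), and the same treatment code; the developing leaves were insertions 19 to 21. The other arrays were of developing leaves at 24, 48 and 96 h (n = 4 each) and of mature leaves at 24 h (n = 2). Untreated plants were not analysed here, so nothing below measures the effect of CO2. From 2 to 12 h the hours of treatment and the hour of the day change together and cannot be told apart; the labels give no clock times. The labels name neither the leaves that were treated nor separate plants for the replicates, so p-values reflect only how these samples vary, possibly for technical reasons.

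The series concerns signals of light and CO2 that mature leaves pass to leaves still forming, which adjust, among other things, how many stomata they make. Over any few hours of a day the transcripts of a leaf also follow the circadian clock, a network of morning and evening regulators in which GI (GIGANTEA) acts in the evening arm. Clock-timed programmes include the making of chlorophyll in the light and the storage of starch by day and its breakdown by night. A developing leaf adds the genes of cell division and of the loosening of cell walls, which mature leaves use little.

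Total RNA was biotin-labelled and hybridised to ATH1 arrays, on which each transcript is read by a set of short probes, and a signal here is the deposited linear intensity of one probe set. Changes are differences of group means of log2(signal + 16) with their standard errors (SE), so that a value of 1 is a doubling on that scale and the changes of low signals come out too small. A probe set was called when its adjusted p from limma, corrected over 16161 tested probe sets, was under 0.05. Array medians at 2 and 4 h lay between 42.5 and 44.4, and replicate arrays correlated at 0.972 to 0.987 across probe sets, which are not independent replicates. The cre spike-in read 2048 to 2954 at 2 h and 2073 to 2919 at 4 h, and the 25S ribosomal RNA control read 35.4 to 138 and 20.8 to 153. Leaf transcripts were abundant: LHCB4.1, a protein of the photosystem II antenna, read 3306 ± 538 at 2 h and 3224 ± 136 at 4 h (SD, n = 4), and PSAE-1, a photosystem I subunit, read 2842 ± 326 and 2741 ± 294. The root, flower, xylem, senescence and mesophyll markers had no named probe set on the array table used, so those cell types were not checked. In leaf samples, a change in the number of cells of a type and a change of RNA per cell cannot be told apart.

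Over the 2 h between the samplings, 330 probe sets changed (2.04% of those tested), 220 upward (1.36%) and 110 downward (0.681%). The rises had a median of 0.62 with quartiles of 0.49 and 0.79, and the falls a median of -0.54 with quartiles of -0.69 and -0.46. Of the rises 124 were at least 1.5-fold, 32 at least 2-fold and 9 at least 3-fold, against 46, 9 and 2 of the falls. The median change over all tested probe sets was -0.01. The risers went from a median signal of 89.8 to 163 and the fallers from 179 to 111.

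For 211 of the 220 risers every 4 h array lay above every 2 h array, and for 101 of the 110 fallers every 4 h array lay below. Among all tested probe sets, called or not, 3.75% had all 4 h arrays above all 2 h arrays and 3.58% had them all below. The calls rest on the same arrays, so the lack of overlap among called probe sets is no added evidence. An unadjusted p under 0.05 was reached by 1562 of the 16161 tested probe sets, the base for such counts in the gene lists below. The median 95% half-width of a change, before correction over all tested probe sets, was 0.27. Leaving out each of the 8 arrays in turn kept 122 of the risers and 47 of the fallers called every time; 72 risers and 49 fallers lost their call in 4 or more of the 8 removals. The count of fallers dropped to 69 without 4 h replicate 3 and to 71 without 4 h replicate 4. With array weights in the fit, 333 probe sets were called higher and 232 lower. Of the called probe sets 116 risers and 51 fallers stood for exactly 1 listed gene, and only these are named; 86 of the 116 and 42 of the 51 genes are known to the gene table by a locus code alone. The largest rise, 2.72, and the largest fall, -1.87, belonged to probe sets without 1 listed gene.

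**Figure D1:**
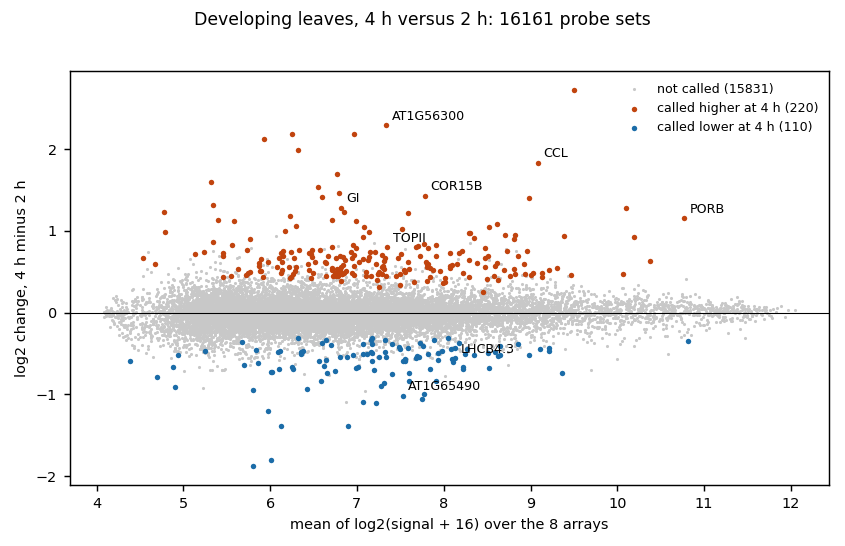
Change from 2 h to 4 h on the log2(signal + 16) scale (vertical axis) against the mean of log2(signal + 16) over the 8 arrays of both times (horizontal axis), 1 point per tested probe set. The 220 called rises reach 2.72 and the 110 called falls reach -1.87, so the rises extend farther from 0 than the falls.

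Genes named for the size of their change were required to have no overlap between their 4 h and 2 h arrays. Lack of overlap is therefore no added evidence for them. The highest rise of a named gene was that of AT1G56300. Its signals were 53.9, 68.4, 49.5 and 57.1 on the 4 arrays at 2 h and 344, 342, 319 and 362 at 4 h, an increase of 2.29 ± 0.13 (limma adjusted p = 1.1e-11). No 4 h array came near the 2 h range, and the means at 24, 48 and 96 h were 10.8, 14.9 and 10.2. AT4G32340 read 25.4, 33.6, 20.9 and 18.5 at 2 h and 143, 141, 126 and 168 at 4 h (1.99 ± 0.15, adjusted p = 7.8e-10). CCL, whose name stands for its likeness to the clock-regulated transcript CCR, read 249, 299, 263 and 280 at 2 h against 1089, 1068, 933 and 971 at 4 h (1.84 ± 0.14, adjusted p = 7.8e-10). All 3 genes kept their call whichever array was left out.

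Of the clock genes on the list used, only GI and AT5G52660 had a tested probe set with 1 listed gene. GI read 51.1, 64, 54.1 and 57.1 at 2 h and 167, 168, 140 and 167 at 4 h, a rise of 1.28 ± 0.12 (adjusted p = 8e-08). The 4 h arrays all lay above the 2 h arrays, replicate 3 being the lowest of them. AT5G52660 averaged 48.1 ± 3.92 at 2 h and 50.1 ± 1.67 at 4 h (0.05 ± 0.13, adjusted p = 1). Among 4 tested genes of clock output and flowering time, CCL was called and the others were not. HYH, a light-signalling bZIP factor, gave -0.37 ± 0.14, COR27 gave 0.20 ± 0.12 and AT4G33980 gave 0.02 ± 0.17. COR27 averaged 1.49 at 2 h and 4.14 at 4 h, and AT4G33980 4.43 and 4.56. Both were too dim at these times for a change to be judged. Their 12 h means were 145 and 40.4.

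Both tested genes of starch breakdown rose. PWD, the phosphoglucan water dikinase that phosphorylates starch, read 139, 168, 131 and 155 at 2 h and 347, 270, 237 and 259 at 4 h (0.84 ± 0.10, adjusted p = 4.8e-06). DPE1, the disproportionating enzyme that acts on short glucose chains in the plastid, read 106, 105, 87.4 and 95.6 at 2 h and 204, 172, 158 and 171 at 4 h (0.75 ± 0.11, adjusted p = 6.1e-05). The groups did not overlap for either gene. The list's remaining members had no tested probe set with 1 listed gene. Of starch synthesis, the branching enzyme SBE2.2 gave -0.09 ± 0.18 and APL3, which belongs to the enzyme making ADP-glucose, -0.11 ± 0.12, and neither was called. Of sucrose synthesis and transport, SWEET11, a sucrose exporter of the phloem, gave -0.09 ± 0.13 and the sucrose-phosphate synthase gene ATSPS4F -0.48 ± 0.19 (adjusted p = 0.3).

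PORB was 1 of 9 tested genes on the list of chlorophyll and carotenoid synthesis and the only one called, with a list median of 0.07. It encodes a protochlorophyllide oxidoreductase, the enzyme of the light-requiring step on the way to chlorophyll. Its signals were 1121, 1169, 1023 and 1318 at 2 h and 2758, 2464, 2580 and 2579 at 4 h (1.16 ± 0.14, adjusted p = 4.5e-06). The lowest 4 h array read well above the highest 2 h array. Other steps of the pathway gave smaller values that were not called, among them CHLM, a methyltransferase of the magnesium branch, at -0.02 ± 0.09 and HEMB1, an early enzyme, at 0.07 ± 0.09. The lowest list member, PSY1R, is a receptor kinase and not an enzyme of this pathway. It gave -0.43 ± 0.20 (adjusted p = 0.43), and PORB and PSY1R were the 2 members at an unadjusted p under 0.05.

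Of the 7 tested antenna and photosystem genes, LHCB4.3 fell and none rose; the list median was -0.11. LHCB4.3, one of 3 genes of the minor antenna protein CP29, read 307, 330, 322 and 339 at 2 h and 213, 265, 190 and 202 at 4 h (-0.55 ± 0.11, adjusted p = 0.0053). Every 4 h array lay below the 2 h arrays. Its relatives LHCB4.1 and LHCB4.2 gave -0.02 ± 0.17 and -0.18 ± 0.17 and were not called.

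COR15B, a cold-regulated protein that protects chloroplast membranes, was the called member of 8 tested genes of abscisic acid, cold and drought responses (list median 0.20). An unadjusted p under 0.05, in either direction, was reached by 4 of the 8. COR15B is described first. It read 74.1, 135, 144 and 133 at 2 h and 297, 403, 277 and 427 at 4 h (1.43 ± 0.15, adjusted p = 4.9e-07). The groups lay far apart, with 2 h replicate 1 below its own group. COR15A, a close relative, went from 101 ± 46.1 to 192 ± 74.9 (0.86 ± 0.25) and missed the threshold with an adjusted p of 0.086. PDC2, a pyruvate decarboxylase of ethanolic fermentation, read 43.3, 40.1, 44.4 and 44.3 at 2 h and 183, 120, 130 and 140 at 4 h (1.42 ± 0.22, adjusted p = 0.0002). Its 2 h arrays lay within a narrow range, and its 4 h arrays were spread widely above it.

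**Figure D2:**
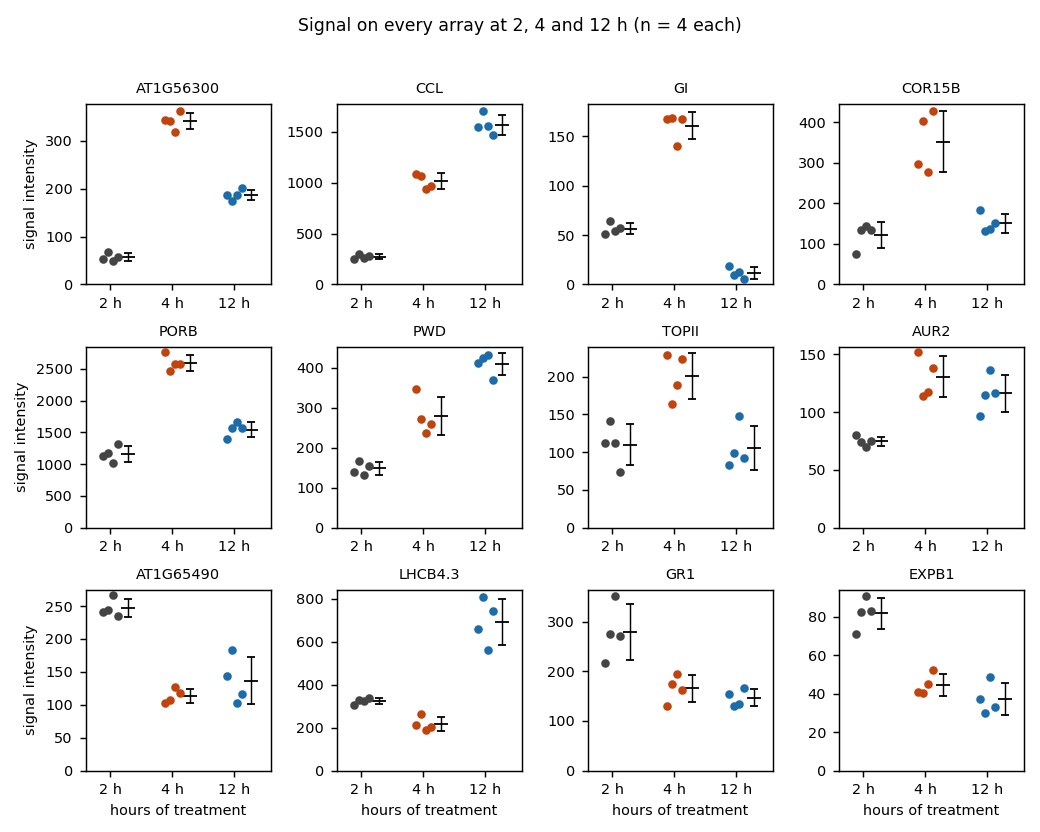
Signal of single arrays (points, linear axes from 0 in deposited units, replicates 1 to 4 from left to right) at 2, 4 and 12 h for 12 genes named in the text, n = 4 per time; the bar beside each group is its mean ± SD. GI is high at 4 h and lowest at 12 h, CCL climbs at both steps, and LHCB4.3 dips at 4 h before its 12 h arrays read 562 to 811.

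Of 11 tested genes of the cell cycle and replication, 3 rose and 1 fell, and the median change was 0.32. An unadjusted p under 0.05, with any direction counted, was reached by 8 of the 11, against 1562 of all 16161 tested probe sets. The gene lists were chosen with earlier results of these data known, so this share is no independent evidence. AUR2, an Aurora kinase of the mitotic spindle and cell plate, read 79.9, 74.0, 69.7 and 74.6 at 2 h and 152, 114, 118 and 138 at 4 h (0.69 ± 0.10, adjusted p = 9.4e-05). The 2 groups were well separated. TOPII, the topoisomerase that untangles replicated DNA, read 112, 142, 112 and 74.2 at 2 h and 229, 164, 190 and 223 at 4 h (0.80 ± 0.19, adjusted p = 0.019). AUR1, the related kinase, rose by 0.50 ± 0.13 (adjusted p = 0.029) from 143 ± 15.8 to 208 ± 11.7. The calls of TOPII and AUR1 were lost without any one of 3 and 6 of the 8 arrays, at adjusted p of up to 0.11 for both.

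POLA3, a subunit of the polymerase and primase that start DNA strands, went the other way. It read 208, 178, 168 and 216 at 2 h and 125, 165, 127 and 143 at 4 h (-0.41 ± 0.11, adjusted p = 0.047), and its call was lost without any one of 6 arrays. The spindle checkpoint genes BUB3.1 (0.42 ± 0.13, adjusted p = 0.1) and BUBR1 (0.32 ± 0.14) and the third Aurora kinase, AUR3 (0.34 ± 0.11), were not called. PRL, a component of the replication-licensing MCM complex, gave -0.35 ± 0.13 and was not called either.

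Among genes of chromosomes and the division apparatus outside that list, 3xHMG-box2, an HMG-box protein found on mitotic chromosomes, read 379, 348, 303 and 454 at 2 h and 823, 567, 510 and 668 at 4 h (0.76 ± 0.17, adjusted p = 0.0097). KINESIN-12B, a motor of the phragmoplast that builds the new wall, read 49.0, 33.4, 35.5 and 37.6 at 2 h and 94.0, 53.2, 64.2 and 76.7 at 4 h (0.67 ± 0.14, adjusted p = 0.0078). For both genes replicate 1 was the highest 4 h array, and all 4 h arrays lay above the 2 h arrays. The call of 3xHMG-box2 was lost without either of 2 arrays and that of KINESIN-12B without 1. TUB5, a beta-tubulin, read 379, 432, 366 and 345 at 2 h and 613, 561, 578 and 576 at 4 h (0.60 ± 0.12, adjusted p = 0.0033), with no overlap.

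These were 1 of 10 tested genes of histones and chromatin (median 0.08) and 2 of 10 of tubulins and microtubule proteins (median 0.10), with no member of either list called lower. An unadjusted p under 0.05, in either direction, was reached by 2 and 3 members of these lists. The 4 tested histone H2B genes were not called: HTB4 gave -0.01 ± 0.10, HTB1 -0.01 ± 0.09, HTB11 0.12 ± 0.12 and HTB2 0.17 ± 0.18. Haspin, a histone kinase of mitosis, and WYR, a partner of the Aurora kinases, are named here after their values were seen. Haspin averaged 49.1 ± 7.85 at 2 h and 72.1 ± 5.60 at 4 h (0.44 ± 0.12, adjusted p = 0.046), and WYR 24.2 ± 3.43 and 38.8 ± 2.99 (0.45 ± 0.11, adjusted p = 0.02). Their calls were lost without any one of 7 and 3 arrays. The markers of dividing cells with a named probe set were AUR1 and AUR2 themselves, whose summed signal was 203 to 245 on the 2 h arrays and 311 to 370 on the 4 h arrays.

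**Figure D3:**
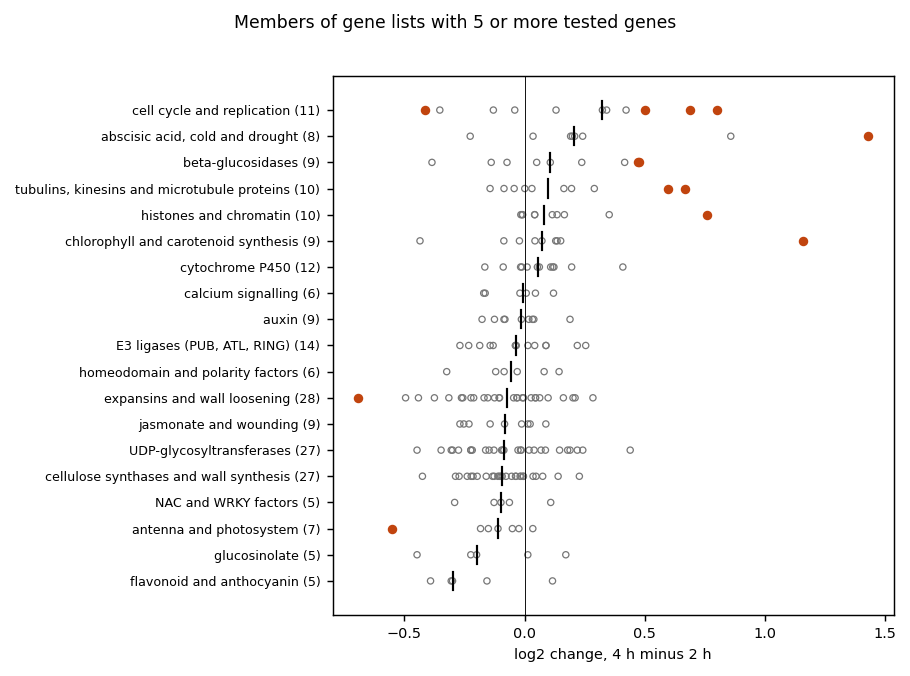
Change from 2 h to 4 h on the log2(signal + 16) scale of each tested member of the gene lists shown, 1 point per gene, filled where called, with the list's median as a black line and the number tested in brackets. Cell cycle genes have the highest median of the lists shown, 0.32, while the 28 genes of expansins and wall loosening have a median of -0.07 with 1 called. The lists were chosen with earlier results of these data known.

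Of 28 tested genes of expansins and wall loosening, EXPB1 was called, none rose, and the median was -0.07; 7 reached an unadjusted p under 0.05. EXPB1, a beta-expansin, read 71.1, 82.6, 90.9 and 82.9 at 2 h and 41.1, 40.2, 44.8 and 52.6 at 4 h (-0.69 ± 0.13, adjusted p = 0.0026). The groups did not overlap. The alpha-expansin EXPA8 went from 69.9 ± 12.7 to 47.3 ± 9.38 (-0.44 ± 0.17, adjusted p = 0.28) and was not called. Among 27 tested genes of cellulose and wall synthesis limma called 0, with a median of -0.09 and 3 at an unadjusted p under 0.05.

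BGLU44 and BGLU25 rose among 9 tested beta-glucosidases, enzymes that free sugars and other compounds from their conjugates. The list median was 0.11, and 5 of the 9 reached an unadjusted p under 0.05 in either direction. BGLU44 read 967, 918, 837 and 860 at 2 h and 1219, 1343, 1170.0 and 1257 at 4 h (0.47 ± 0.12, adjusted p = 0.03), with no overlap. BGLU25 read 126, 122, 152 and 149 at 2 h and 147, 244, 216 and 192 at 4 h (0.48 ± 0.13, adjusted p = 0.042), its 4 h replicate 1 lying inside the 2 h range. The calls were lost without any one of 6 and 7 of the 8 arrays.

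The remaining lists with 5 or more tested members had 0 calls by limma. Auxin genes had 9 tested members with 0 at an unadjusted p under 0.05, and the jasmonate and wounding list had 9 with 0. Cytochrome P450 genes had 12 with 0, calcium signalling genes 6 with 0 and flavonoid genes 5 with 0. UDP-glycosyltransferases had 27 tested members with 2 at an unadjusted p under 0.05, E3 ligases 14 with 2 and the glucosinolate list 5 with 1. NAC and WRKY factors had 5 with 1 and homeodomain and polarity factors 6 with 1. Such counts stand against 1562 of all 16161 tested probe sets. PUB23, PUB24, PUB25 and PUB26 are on both the jasmonate and wounding list and the E3 ligase list. The glucosinolate list includes MAMI and UGT74D1, which are not enzymes of glucosinolate synthesis. The flavonoid list had the lowest median, -0.30, with UGT78D1, a flavonol glycosyltransferase, at -0.31 ± 0.16 and CHIL, a chalcone isomerase-like protein, at -0.39 ± 0.21. The guard cell markers with a named probe set, 4 of 7, had 3 tested and 0 called (0 also at an unadjusted p under 0.05), and summed to 443 to 572 at 2 h and 439 to 530 at 4 h. The meristem marker CLV3 averaged 2.72 and 2.49 and was too dim to be tested. TRY, a trichome regulator, read 41.4 to 47.3 at 2 h and 18.6 to 35.8 at 4 h, which missed the threshold (-0.48 ± 0.13, adjusted p = 0.059).

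The falls were smaller than the rises, and AT1G65490 was the only named gene to fall by 2-fold on the log2(signal + 16) scale. It read 240, 244, 266 and 235 at 2 h and 103, 107, 127 and 118 at 4 h (-1.02 ± 0.15, adjusted p = 9.5e-05), and its means at 24, 48 and 96 h were 499, 659 and 722. The 4 h arrays all lay far below the 2 h arrays. GR1 (AT3G24170), a glutathione reductase that keeps the antioxidant glutathione in its reduced form, read 217, 275, 353 and 271 at 2 h and 131, 175, 194 and 163 at 4 h (-0.69 ± 0.13, adjusted p = 0.0016). MGL, a methionine gamma-lyase, read 71.5, 58.5, 63.2 and 74.2 at 2 h and 27.9, 29.8, 30.9 and 50.9 at 4 h (-0.72 ± 0.14, adjusted p = 0.0033). As the naming required, neither gene's groups overlapped, although 4 h replicate 4 of MGL stood above its own group.

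AT5G48490 read 755, 931, 801 and 862 at 2 h and 572, 524, 458 and 437 at 4 h (-0.74 ± 0.12, adjusted p = 0.00042), again without overlap. AT3G21670 (NPF6.4), of the nitrate and peptide transporter family, read 341, 375, 402 and 339 at 2 h and 188, 268, 213 and 213 at 4 h (-0.69 ± 0.16, adjusted p = 0.014). Its call was lost without either of 2 arrays. RALFL22, a small peptide of the RALF family of growth signals, went from 81.3 ± 9.85 to 53.4 ± 5.31 (-0.48 ± 0.13, adjusted p = 0.039), a call lost without any one of 7 arrays. The other named fallers, known by locus code, ranged from -0.44 for AT4G13010 to -0.86 for AT1G60590.

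**Figure D4:**
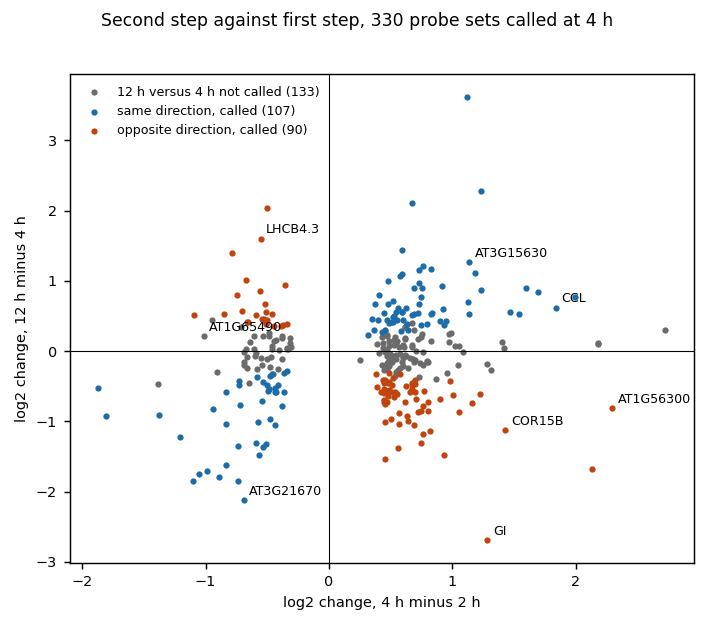
Change from 4 h to 12 h against the change from 2 h to 4 h, both on the log2(signal + 16) scale, 1 point per probe set called at 4 h versus 2 h, coloured by whether the first change goes on, reverses or does neither at 12 h. GI lies at 1.28 and -2.69 and CCL at 1.84 and 0.62; both axes share the 4 h arrays, so an error there moves a point along a falling diagonal.

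Each change was then followed to 12 h. A change was taken to go on when 12 h versus 4 h was called in the same direction, to reverse when it was called in the opposite direction, and to do neither when it was not called. The steps share the 4 h arrays, so an array error at 4 h moves them in opposite directions and adds to the reversals, and 12 h versus 2 h shares arrays with both. Between 4 and 12 h limma called 15.8% of all tested probe sets higher and 12.8% lower; between 2 and 12 h it called 15.1% higher and 13.5% lower. The ratio of an actin control's 3′ to its 5′ probe set, a measure of RNA quality and labelling, was 5.58 to 7.01 at 2 h, 5.81 to 7.94 at 4 h and 2.91 to 3.70 at 12 h, while a newer actin set gave 1.57 to 2.33, 1.60 to 1.93 and 1.51 to 1.80. The part of this in the 12 h values was not tested.

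Of the 220 rises 65 went on, 65 reversed and 90 did neither. The 65 that went on, being called upward at both steps, stood above 2 h at 12 h by definition. Their median further change was 0.56. Of the 65 that reversed, 51 no longer differed from 2 h by the test, 10 had fallen below it and 4 were still above it. Of the 90 that did neither, 78 were still called above 2 h. Of the 32 rises of at least 2-fold, 13 went on, 8 reversed and 11 did neither.

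Of the 110 falls 42 went on, 25 reversed and 43 did neither. The 42 that went on, being called downward at both steps, were below 2 h at 12 h by definition. Their median further change was -0.78. Of the 25 that reversed, 20 were not called against 2 h, 4 stood above it and 1 below, and of the 43 that did neither 34 were still below. In sum, 147 of the 220 risers were called above 2 h at 12 h and 77 of the 110 fallers below it. The count of reversing rises depended on single arrays, and the total of rises changed as well. It was 34 of 151 without 4 h replicate 4 and 36 of 151 without 2 h replicate 3. It was 41 of 168 without 2 h replicate 4 and 42 of 163 without 4 h replicate 3. The continuing falls numbered 26 of 69 without 4 h replicate 3. The reversing falls numbered 16 of 75 without 2 h replicate 3 and 16 of 80 without 2 h replicate 4. Falls that did neither numbered 20 of 77 without 2 h replicate 2 and 27 of 75 without 2 h replicate 3. They numbered 24 of 69 without 4 h replicate 3 and 25 of 71 without 4 h replicate 4. With array weights 103 of 333 rises reversed. Of 232 falls in that fit 74 went on, 84 reversed and 74 did neither. The reversing falls numbered 43 of 157 without 3 later arrays whose control signals stood apart. With the replicate number as a block they were 39 of 137.

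**Figure D5:**
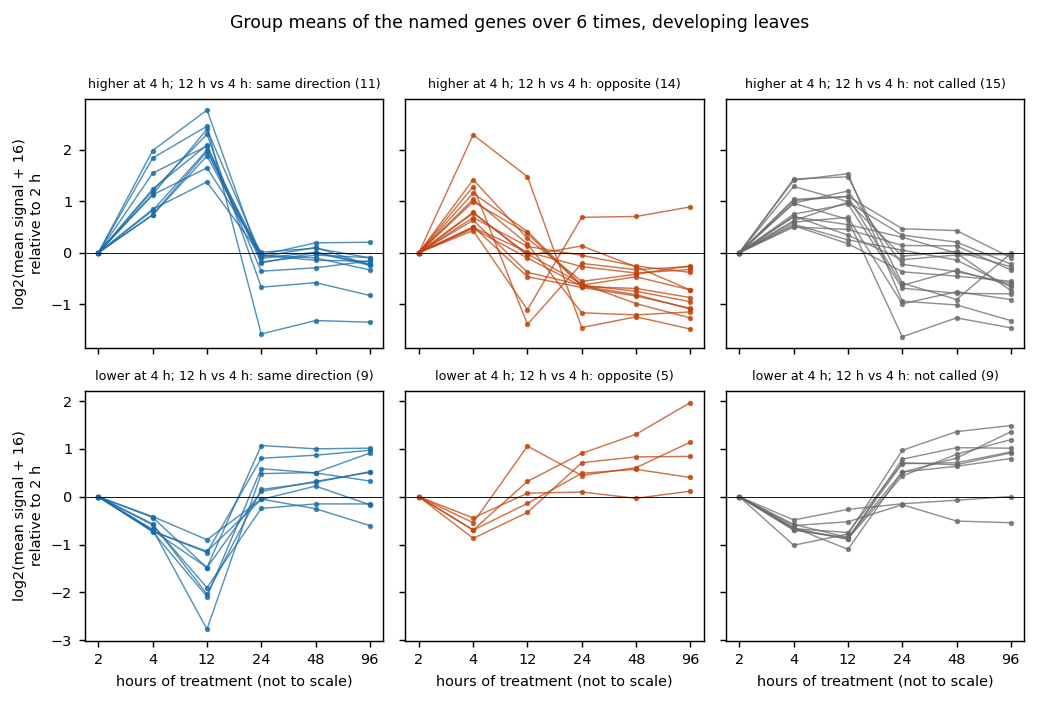
The log2 of each group's mean signal + 16, relative to the 2 h group, at 2 to 96 h (times evenly spaced, not to scale) for the called named genes, 1 line per gene, with risers above, fallers below and panels by whether the 4 h change goes on, reverses or does neither at 12 h. The genes whose rise goes on stand highest at 12 h and read near or below their 2 h values at the later times.

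The rises that went on to 12 h included both CCL and PWD. CCL read 1543, 1701, 1554 and 1472 at 12 h, 0.62 above 4 h (adjusted p = 0.00091), and its 24 h mean was 80.8. PWD read 412, 424, 430 and 370 (0.54, adjusted p = 0.00016), while DPE1, at 233, 192, 175 and 218, did not differ from 4 h by the test (0.20, adjusted p = 0.19). Every 12 h array of CCL and of PWD lay above the 4 h arrays, and those of DPE1 overlapped them.

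Among the continuing rises that met the conditions for naming, which require 1 listed gene, the largest second steps were those of AT3G15630, AT1G26665, SCPL49, AT1G56220 and AT3G62550. AT3G15630 read 43.9, 57.7, 56.8 and 61.7 at 2 h, 156, 128, 144 and 131 at 4 h and 342, 358, 397 and 332 at 12 h (1.14 ± 0.11, then 1.26 ± 0.11). SCPL49, a serine carboxypeptidase-like protein, averaged 166 ± 23.2, 305 ± 11.2 and 708 ± 44.8 (0.83, then 1.17). AT3G62550 averaged 33.6 ± 1.69, 98.3 ± 22.0 and 228 ± 31.5 (1.18, then 1.11), and 15.2 at 24 h. For each of the 3 genes the signal more than doubled over the second step. AT4G32340 also went on, to 316, 250, 197 and 279 at 12 h, as did AT4G16146, AT2G21130 and AT1G07050.

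Several continuing rises with known products are named here after their values were seen. LCR69, a small cysteine-rich peptide of the defensin type, averaged 837 ± 122, 1591 ± 42.7 and 2441 ± 443 (0.92 ± 0.11, adjusted p = 3.3e-06). THIC, the enzyme that makes the pyrimidine moiety of thiamine, averaged 210 ± 25.7, 359 ± 37.6 and 730 ± 162 (0.73 ± 0.12, adjusted p = 0.00033). CHL, a lipocalin of the chloroplast, averaged 257 ± 47.5, 452 ± 38.4 and 596 ± 45.0 (0.79 ± 0.12, adjusted p = 9.5e-05). These 3 genes kept their 4 h call whichever array was left out. MAP1C, a methionine aminopeptidase, went on in the same way (0.69 ± 0.13, then 0.53), as did the carboxypeptidase-like gene scpl35 (0.91 ± 0.16, then 0.93).

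GI had the largest second step of the reversing rises. At 12 h it read 18.8, 9.85, 12.6 and 5.35, a change of -2.69 ± 0.12 from 4 h (adjusted p = 2.6e-15) to below its 2 h level (-1.41 ± 0.12), and its 24 h mean was 46.8. No 12 h array reached the 2 h range. AT1G73480 and AT4G12750 also reversed to below 2 h: AT1G73480 averaged 103 ± 23.9, 145 ± 13.2 and 39.4 ± 3.95, and AT4G12750 99.4 ± 6.75, 148 ± 16.1 and 67.5 ± 4.76. Their rises at 4 h were 0.45 ± 0.11 and 0.50 ± 0.10, and the call of AT1G73480 was lost without any one of 6 arrays. AT5G42250, too dim for the conditions for naming, read 5.5 to 22.0 at 2 h, 26.9 to 41.4 at 4 h and 3.19 to 4.14 at 12 h, with a second step of -1.31.

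COR15B reversed to 184, 131, 136 and 151 at 12 h (-1.13 ± 0.15 from 4 h, adjusted p = 1.7e-06) and was not called against 2 h (0.30, adjusted p = 0.15). PORB came down to 1387, 1563, 1657 and 1569 (-0.75 ± 0.14, adjusted p = 0.00016), still above its 2 h arrays. AT1G56300 did likewise, at 188, 174, 187 and 201 (-0.81 ± 0.13, adjusted p = 3.3e-05). PORB and AT1G56300 thus stood between their 2 h and 4 h levels, and their means from 24 h onward lay below the 2 h means.

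Of the genes of division and the cytoskeleton named above, TOPII went back to 82.5, 99.3, 148 and 92.6 (-0.85 from 4 h, adjusted p = 0.00099), 3xHMG-box2 to 390, 286, 418 and 360 (-0.78, adjusted p = 0.00065) and KINESIN-12B to 46.1, 38.4, 39.1 and 51.1 (-0.54, adjusted p = 0.0048), and none of the 3 was called against 2 h. AUR2, at 96.9, 115, 136 and 116, AUR1, at 167, 200, 232 and 206, and TUB5, at 593, 603, 622 and 669, did not differ from 4 h by the test and stayed called above 2 h. Haspin and WYR, chosen after their values were seen, reversed to 37.3 ± 5.34 and 20.2 ± 2.80. POLA3 went on downward to 95.1, 97.6, 97.4 and 92.1 (-0.48, adjusted p = 0.0016). BGLU44 and BGLU25 reversed, by -0.57 and -0.46, and were not called against 2 h.

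Of the rises that did neither, PDC2 read 177, 136, 159 and 118 at 12 h (0.04 from 4 h, adjusted p = 0.92). AT4G30650 and AT4G30660, which lie next to each other in the gene table, both rose at 4 h and were not called between 4 and 12 h: the first averaged 296 ± 27.0, 811 ± 75.3 and 888 ± 65.9, and the second 308 ± 26.8, 615 ± 73.6 and 491 ± 74.4. Their changes at 4 h were 1.40 ± 0.18 and 0.96 ± 0.13, and at 12 h versus 4 h 0.13 (adjusted p = 0.65) and -0.32 (adjusted p = 0.062). AT1G26660 and AT1G26665, neighbours too, were both called higher at 4 h, by 0.53 ± 0.14 and 0.76 ± 0.14, the call of AT1G26660 being lost without any one of 7 arrays (adjusted p up to 0.14). At 12 h AT1G26660 read 34.8, 27.1, 25.7 and 35.8, all below its 4 h arrays of 40.6 to 45.7. Its change from 4 h narrowly missed the limma threshold (-0.36, adjusted p = 0.05), and it was not called against 2 h (adjusted p = 0.38). AT1G26665 went on to 229 ± 45.0. DPE1 and its neighbour AT5G64850 moved in opposite directions at 4 h, AT5G64850 by -0.54 ± 0.13.

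Among the falls that went on, AT3G21670 went farthest, to 54.9, 46.4, 20.4 and 36.7 at 12 h (-2.12 ± 0.16 from 4 h, adjusted p = 7.7e-11), and its means at 24, 48 and 96 h were 516, 524 and 701. AT5G48490 reached 200, 181, 166 and 191 (-1.35 ± 0.12) and MGL 10.7, 11.1, 11.7 and 21.2 (-0.77 ± 0.14). All of these 12 h arrays lay below the 4 h arrays of the same gene. AT3G01060, AT1G76240 and AT4G13010 followed with second steps of -1.48, -1.30 and -1.04, from first steps of -0.57, -0.60 and -0.44. AOR, an oxidoreductase of reactive carbonyls named after its values were seen, averaged 676 ± 75.9, 497 ± 33.6 and 328 ± 21.5, and its 4 h call was lost without any one of 5 arrays.

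LHCB4.3 had the largest second step of the reversing falls that met the conditions for naming. It read 659, 811, 562 and 743 at 12 h, 1.60 ± 0.11 above 4 h (adjusted p = 2.9e-11) and 1.05 above 2 h (adjusted p = 4.5e-08), while LHCB4.2, not called at 4 h, changed by -1.79 ± 0.17 over the same step and LHCB4.1 by -0.43 ± 0.17 (adjusted p = 0.07). LHCB4.3 and LHCB4.2 thus moved in opposite directions between 4 and 12 h, and LHCB4.1 was not called. AT1G78020, whose 2 h and 4 h groups overlap, had a larger second step, reading 113 to 173 at 2 h, 84.0 to 116 at 4 h and 427 to 471 at 12 h (-0.51, then 2.03). Its 4 h call was lost without any one of 6 arrays. AT1G68440, also with overlapping groups, averaged 18.9 ± 8.86, 3.71 ± 1.45 and 36.2 ± 7.74 (-0.79, then 1.39). AT5G19240 averaged 148 ± 37.0, 85.1 ± 11.4 and 189 ± 22.1 (-0.67, then 1.02), and AT1G60590 and AT1G10640 regained 0.52 and 0.57. GSTU16, a glutathione transferase named after its values were seen, averaged 41.9 ± 2.03, 29.2 ± 2.50 and 70.9 ± 8.21, above its 2 h level at 12 h. EXPB1, GR1 and AT1G65490 did neither: EXPB1 read 37.0, 30.1, 48.7 and 33.0 at 12 h, GR1 155, 131, 135 and 166, and AT1G65490 144, 184, 103 and 117, all 3 still called below 2 h.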

How the data were processed

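Linear signal intensities deposited by the authors were used; per the submitters' processing notes they were made with MAS5, for which they name no version. Without its highest and lowest 2% of values each deposited intensity column averaged 100, and no detection calls were used. No column was left unused. The table held 22810 probe sets, of which 64 were controls.

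Values were transformed as log2(value + 16), and probe sets above the 40th percentile of their array on at least 2 arrays were tested, which left 16161. A model of 7 group means over all 26 arrays was fitted with lmFit and eBayes(trend = TRUE) in limma 3.58.1 (R 4.3.3), giving 4 h versus 2 h, 12 h versus 4 h and 12 h versus 2 h, each adjusted by the Benjamini-Hochberg method over all tested probe sets. The fit was tested on simulated data.

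Names came from the platform annotation, updated with a TAIR10.1 gene table: 13513 probe sets had 1 gene, 13436 of which matched. Among those tested, 8989 stood for 1 gene, 319 for several and 6853 were unlisted. No named probe set carries the suffix by which the array's maker marks probes shared between genes. Where a gene had several probe sets, the brightest was taken.

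Named genes were the 20 highest and 15 lowest changes among called probe sets with 1 gene, no overlap between groups and a brighter group mean over the median signal. The 5 largest second steps in each class of the course to 12 h, under the same conditions, were added, as were up to 4 called members of each of 37 gene lists, GI, CCL and the clock genes. Other genes were chosen after their values were seen. The members and lists were chosen with earlier results of these data known. Alternatives covered the pseudocount, filter, scaling, arrays in the fit, array weights, the variance trend, a replicate block and each array left out. The number of arrays limits the precision. Promoter motifs and sequences were not analysed here.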

Additional observations from a re-analysis of the deposited data

Results flagged for a closer look

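Among the named genes, 192 groups of 4 arrays at 2, 4 or 12 h were checked for a single array far from the others of its group, and 10 stood out; chance marks about 1 group in 20. At 2 h these were COR15B on replicate 1 (74.1, others 133 to 144), AT5G47550 on replicate 1 (135, others 167 to 174), AT1G23205 on replicate 1 (120, others 155 to 159) and AT3G23740 on replicate 4 (39.6, others 52.4 to 53.4). At 4 h they were GI on replicate 3 (140, others 167 to 168), AT1G73480 on replicate 2 (164, others 137 to 139) and MGL on replicate 4 (50.9, others 27.9 to 30.9). At 12 h they were MGL on replicate 4 (21.2, others 10.7 to 11.7), AT3G01060 on replicate 4 (49.8, others 69.8 to 72.0) and AT2G37240 on replicate 1 (51.6, others 37.3 to 38.9). MGL was the gene that stood out at 2 times, both on replicate 4.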

How the results depend on the processing

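The alternatives gave 186 to 333 rises and 90 to 232 falls against 220 and 110, apart from single arrays left out. Array weights gave the most, with 333 rises and 232 falls, and 103 reversing rises, 74 continuing falls, 84 reversing falls and 74 falls that did neither. Without the 3 later arrays whose control signals stood apart, 43 of 157 falls reversed. Leaving out 1 of the 2 h or 4 h arrays at a time gave 151 to 203 rises and 69 to 100 falls, and leaving out 1 of the 12 h arrays 209 to 219 and 102 to 111. Over all these removals 48 to 62 rises went on, 34 to 65 reversed and 61 to 93 did neither, and 26 to 43 falls went on, 16 to 31 reversed and 20 to 45 did neither. The cause was not tested, though fewer arrays were fitted there. The fit of the 2 h and 4 h arrays alone, chosen after seeing the data, gave 198 rises and 90 falls, 242 of the 330 calls among them. For the 64 named genes no direction turned in 766 values under other settings, where 37 values of 12 genes missed the threshold, nor in 512 with 1 array left out, where 96 values of 21 genes did. The labels number the replicates 1 to 4 at each time. Same-numbered arrays at 2 and 4 h deviated together at 0.32, 0.14, 0.30 and 0.075. As 1 of them was below 0.1 the numbers were not taken as pairs, although each 2 h array correlated best with its own number. Each 4 h array also correlated best with its own number at 12 h, at 0.38, 0.24, 0.099 and 0.27. At 2 and 12 h the values were 0.33, 0.15, 0.069 and 0.012. There the 2 h arrays of replicates 3 and 4 correlated better with another number, at 0.087 and 0.062. The p-values of the main fit take no account of the likeness between same-numbered arrays. With the number as a replicate block, 235 rises and 137 falls were called, 325 of them shared, and 39 falls reversed. The number of arrays limits what could be called. The median 95% half-width of 0.27 is before correction over all tested probe sets, so it is not the size a call needed. The called rises had a lower quartile of 0.49 and the called falls an upper quartile of -0.46. The planned promoter motif shares were not run, for want of a promoter table.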
